A study of Mus musculus with 12 samples.

Results

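The genes described here are 10 components of the bone morphogenetic protein (BMP) and transforming growth factor beta (TGF-beta) pathways that act in endothelial cells, namely Bmp4, Eng, Acvrl1, Bmpr2, Tgfbr1, Tgfbr2, Smad6, Smad7, Id1 and Id3. They were chosen by symbol, and all 10 were found among the 14851 genes of the deposited tables. RNA was sequenced from 562 cells, a spontaneously immortalized line grown from vascular tumors of Tsc1 f/f;Scl-Cre mice treated with tamoxifen, of the strain C57BL/6. The 12 libraries fall into 4 groups of 3, which are control cells (genotype given as wildtype) and cells with a knockout (KO) of Fip200, of Atg5 or of Atg7. Every group, the control included, derives from cells in which Tsc1 was deleted, so that "wildtype" refers to the autophagy genes alone. The KO cells were made by CRISPR-Cas9, and Fip200, Atg5 and Atg7 are each needed for autophagy. The study describes a pair of Fip200 KO clones, and the labels do not tell which clone a library came from. The methods name cells with an sgRNA against EGFP as the CRISPR control, and whether the wildtype libraries are these cells is not stated. The study calls the mRNA samples independent replicates and states biological replication for its experiments in general. What separates the libraries of a group, such as culture or clone, is not given, so the p-values measure only the spread between these libraries, which may be in part technical.

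Ligands of this family bind a type II and a type I serine/threonine kinase receptor, and the type I receptor phosphorylates Smad proteins that enter the nucleus with Smad4. Endothelial cells have their own BMP arm, in which the co-receptor endoglin (Eng) and the type I receptor ALK1 (encoded by Acvrl1) respond to circulating BMP ligands and keep vessels quiescent. Loss of a copy of either gene causes hereditary hemorrhagic telangiectasia, a human disease of malformed vessels. The Id genes are direct transcriptional targets of the BMP Smads, and Smad6 and Smad7 act as feedback inhibitors.

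Id3 and its family member Id2 are shown by the 250 bases before their RefSeq transcription start (build GRCm38.p6, plus strand at chr4:136143572-136143821 for Id3 and minus strand at chr12:25096093-25096342 for Id2), because results below turn on the Id genes. Capitals mark each copy of GGCGCC, a motif bound by BMP Smads, and of CAGAC or its reverse complement GTCTG, the core bound by Smad3 and Smad4. Both strands were searched, and no copy overlapped another.
Id3: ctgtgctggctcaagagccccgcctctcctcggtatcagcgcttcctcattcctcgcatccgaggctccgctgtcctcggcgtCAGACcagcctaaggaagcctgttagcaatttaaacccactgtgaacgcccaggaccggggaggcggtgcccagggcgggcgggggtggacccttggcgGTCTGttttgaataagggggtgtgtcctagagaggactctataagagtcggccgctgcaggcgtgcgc
Id2: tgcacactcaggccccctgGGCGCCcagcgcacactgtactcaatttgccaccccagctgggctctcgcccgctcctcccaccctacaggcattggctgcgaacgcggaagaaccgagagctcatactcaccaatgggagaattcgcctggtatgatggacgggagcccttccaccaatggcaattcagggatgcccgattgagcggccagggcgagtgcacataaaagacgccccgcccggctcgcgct
Of all 32851 RefSeq promoters taken over the same 250 bases, 9.59% hold GGCGCC and 42.2% hold CAGAC on either strand. The Id3 stretch holds 2 copies of CAGAC and none of GGCGCC, and the Id2 stretch holds 1 copy of GGCGCC and none of CAGAC. Among the other genes, Eng holds 2 copies of CAGAC, Tgfbr2 holds 1, Bmpr2 holds 1 of GGCGCC, and Tgfbr1 holds 1 of GGCGCC before its first listed start and 1 of CAGAC before the other. Smad6 and Bmp4 hold neither. RefSeq promoters were matched for 7 of the 10 genes, all but Id1, Acvrl1 and Smad7. A match is a string of letters in the window and says nothing about binding in these cells.

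Between 17264989 and 23627944 reads per library lay on the listed genes. Expression is given as RPKM, reads per kilobase of gene scaled to the reads of the library. Differences are given as log2 fold changes of RPKM plus 0.5, with their standard error (SE), a scale that understates the changes of genes with low RPKM. A gene was called where limma gave a Benjamini-Hochberg adjusted p of at most 0.1 over all tested genes and the log2 fold change was at least 1 in size. The 3 KO groups were each compared with the same 3 control libraries, so those comparisons are not independent of each other. The mRNA of the targeted gene was lower only in Atg7 KO cells by this rule (log2 fold change -1.97, adjusted p 0.0216 by limma), while Rb1cc1, the gene of FIP200, and Atg5 overlapped control. Atg7 mRNA was also below all control libraries in Atg5 KO, at a mean of 10.6 against 21.1 RPKM (-0.95, adjusted p 0.00830 by limma, under the threshold on size). A CRISPR lesion need not lower the mRNA.

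Several libraries stood apart. Endothelial identity was present, with 11 of 14 pan-endothelial markers at 0.5 RPKM or more in all 12 libraries and with 4 of the 6 lymphatic markers in the tables (Lyve1, Pdpn, Flt4 and Nrp2) at 31.7 RPKM or more. The other lymphatic markers were low, with Prox1, a defining lymphatic regulator, between 0.0366 and 5.79 RPKM and Reln between 0.00775 and 4.39 RPKM. The 14 pan-endothelial markers summed to 3135, 1245 and 2132 RPKM in control replicates 1 to 3 and to between 2337 and 3557 RPKM in the 9 KO libraries. Control replicate 2 was the lowest of all and also held 214 RPKM of fibroblast or mural markers (10 of 11 listed markers in the tables), against 6.20 and 45.5 RPKM in the other control libraries and between 5.02 and 67.5 RPKM in KO libraries, with Col3a1 at 143 and Dcn at 56.9 RPKM but Col1a1, Col1a2 and Rgs5 at or near 0. Summed leukocyte markers (5 of 8 in the tables) were 265 RPKM in Fip200 KO replicate 1, between 52.9 and 111 RPKM in control and between 13.9 and 27.3 RPKM in the other KO libraries. Cd68 made up 263 of the 265 RPKM and between 34.4 and 91.7 RPKM in control, while Ptprc, which defines leukocytes, was at most 0.129 RPKM in every library. Epithelial markers (3 of 6 in the tables) summed to between 12.3 and 17.4 RPKM in control and between 1.56 and 27.6 RPKM in KO libraries. The part of these markers in the results below was not tested. Atg5 KO replicates 1 and 2 were more alike than any other libraries of a group (chi-square per degree of freedom 8.19, against 48.55 to 296.46), yet differed by more than sampling noise and were kept as the separate samples their labels name. This does not tell separate cultures from repeat preparations of 1 culture. The library names carry the prefix FY for control replicate 1 and all Fip200 KO libraries, JG for control replicates 2 and 3 and Atg5 KO replicates 1 and 2, and Yang for Atg5 KO replicate 3 and all Atg7 KO libraries. The labels do not say what the prefix stands for.

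In control cells the 10 genes covered a wide span of levels, in mean RPKM from Id1 at 277 and Eng at 189, through Id3 at 153, Bmp4 at 109 and Tgfbr2 at 77.3, to Acvrl1 at 19.8, Bmpr2 at 12.2, Tgfbr1 at 6.03, Smad6 at 4.99 and Smad7 at 3.64. The control libraries of neighbours in this order overlapped for Id1 with Eng, Eng with Id3, Bmp4 with Tgfbr2, Tgfbr1 with Smad6 and Smad6 with Smad7, and did not overlap for the others. Over the 9 KO libraries the mean of Id1 was 60.1 RPKM, which placed it behind Eng, Bmp4, Tgfbr2 and Id3.

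**Figure D1:**
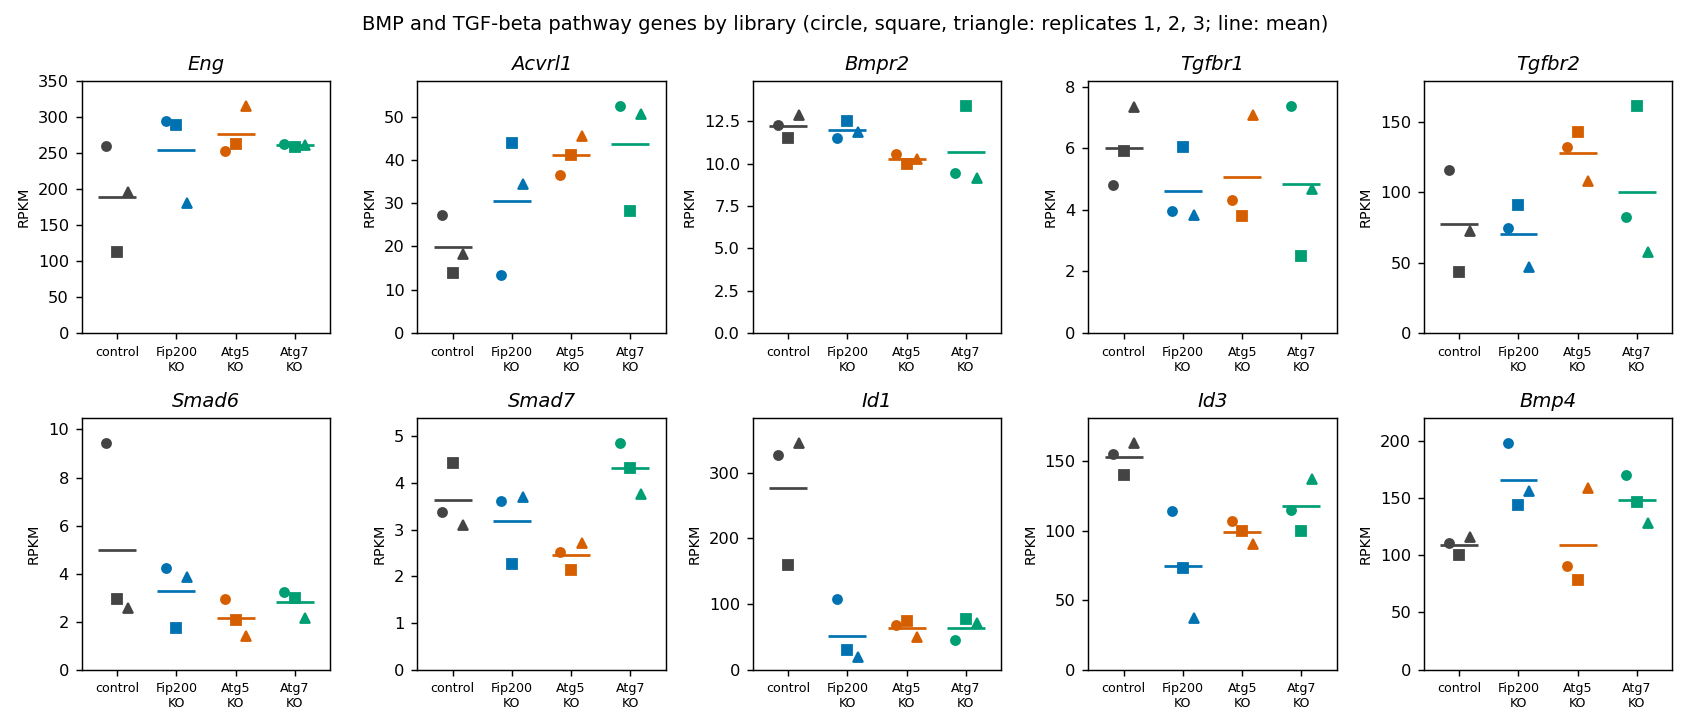
RPKM of the 10 genes (vertical axes from 0, a scale for each gene) in control cells and the 3 KO groups. Circles, squares and triangles are replicates 1, 2 and 3 and lines are group means; the 9 KO libraries of Id1 (18.9 to 107) and of Id3 (37.3 to 137) all lie below the 3 control libraries (160 to 345 and 140 to 163), while Bmpr2 spans only 9.18 to 13.4.

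In Atg5 KO and Atg7 KO cells the target gene Id1 was lower and the receptor gene Acvrl1 was higher than in control. Id1 in Fip200 KO and Id3 in each KO were not called, although their libraries lay below control. By the call rule, 0 of the 10 genes were called in Fip200 KO, where 1.98% of all 11803 tested genes were called. In Atg5 KO 2 of 10 were called, Id1 lower and Acvrl1 higher, where 11.2% of 11833 genes were called. The same 2 of 10 were called in Atg7 KO, where 10.1% of 11784 genes were called. All 10 genes passed the filter on low values in each comparison. At an unadjusted p under 0.05 limma gave 3, 5 and 4 of the 10 in Fip200, Atg5 and Atg7 KO, against 16.1%, 43.8% and 33.7% of all tested genes, and limma-voom on the reads called 0, 2 and 2. KO and control libraries did not overlap for 3, 5 and 4 of the 10, against 24.1%, 50.4% and 39.6% of all tested genes. Of these members, 2, 4 and 2 lay below control (12.4%, 22.0% and 20.4% of all tested genes) and 1, 1 and 2 above it (11.7%, 28.4% and 19.2%). The median log2 fold change of the 10 was -0.12, -0.25 and 0.01, beside 0.02, 0.06 and -0.01 over all tested genes.

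**Figure D2:**
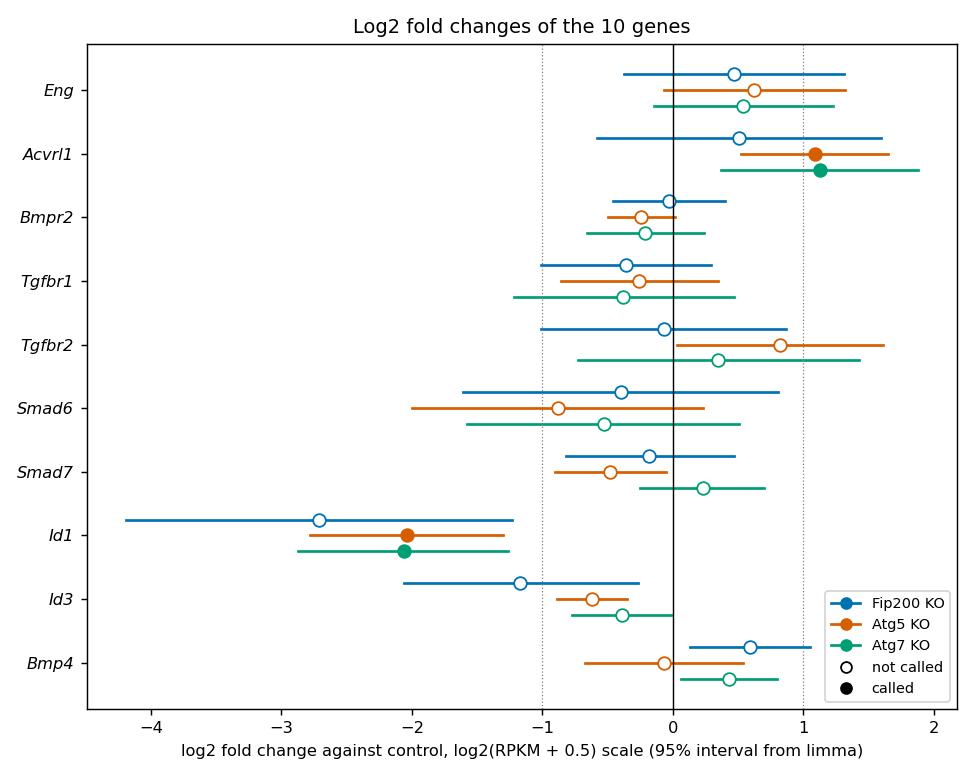
Log2 fold change of each gene against control on the log2(RPKM + 0.5) scale (horizontal axis; bars are 95% intervals from limma), with Fip200 KO in blue, Atg5 KO in orange and Atg7 KO in green. Filled circles mark called genes and dotted lines a log2 fold change of 1 in size; Id1 lies between -2.71 and -2.04 in all 3 KO groups and Acvrl1 at 1.09 and 1.13 in Atg5 KO and Atg7 KO.

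Id1 (gene identifier 15901) encodes an inhibitor of basic helix-loop-helix transcription factors and is a standard readout of BMP signaling in endothelium. It stood at 326, 160 and 345 RPKM in control replicates 1 to 3. It stood at 107, 30.3 and 18.9 RPKM in Fip200 KO, at 68.7, 73.5 and 50.4 RPKM in Atg5 KO and at 44.7, 76.6 and 70.4 RPKM in Atg7 KO. All 9 KO libraries were below the lowest control library, as for 7.28% of the 12233 genes tested over all libraries, and Fip200 KO replicate 1 was the highest of the 9. In bulk RNA, a smaller share of cells with the transcript and less of it per cell cannot be told apart. Id1 fell by 2.04 on the log2 scale in Atg5 KO (SE 0.31, mean 64.2 ± 12.2 RPKM against 277 ± 102 in control, SD, n = 3 each, adjusted p 0.00729 by limma), a 4.11-fold reduction. It fell by 2.06 in Atg7 KO (SE 0.34, mean 63.9 ± 16.9 RPKM, adjusted p 0.0169 by limma). The Fip200 KO value was the largest in size and was not called, with a log2 fold change of -2.71 (SE 0.63, 95% interval -4.19 to -1.23, mean 52.2 ± 48.1 RPKM, adjusted p 0.117 by limma). Without Fip200 KO replicate 1 it was called at -3.43 (adjusted p 0.0580 by limma), and in 1 fit of all 12 libraries it was called at -2.71 (adjusted p 0.0218 by limma). The other tested alternatives did not call it. Leaving out 1 library gave values from -3.43 to -2.19, and over the alternatives the adjusted p reached 0.510 by limma. An exact two-sided permutation test of 3 against 3 libraries gave p = 0.1 for Id1 in each KO, which is the smallest that this design allows.

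The Id1 difference was present within each library prefix that holds both kinds of library. Within FY, the 3 Fip200 KO libraries lay 3.03 below the control library in mean log2, and within JG the 2 Atg5 KO libraries lay 1.72 below the 2 control libraries. No control library shares the Yang prefix of the Atg7 KO libraries, so Atg7 KO cannot be compared with control within it. Only Atg5 KO replicate 3 links that prefix to the other groups, so the prefix term for Atg7 KO rests on that library. With the prefix as a term in a fit of all 12 libraries, no Id1 difference was called (-3.03, -1.72 and -1.42 in Fip200, Atg5 and Atg7 KO, with adjusted p 0.333, 0.205 and 0.716 by limma). Per 1000 RPKM of summed pan-endothelial markers, a scale chosen after the data were seen, Id1 was at 104, 128 and 162 in control replicates 1 to 3 and between 8.08 and 39.2 in the 9 KO libraries, again with no overlap. On this scale the median log2 fold change of all tested genes also moved, by -0.36, -0.67 and -0.41 in Fip200, Atg5 and Atg7 KO.

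Id3 (15903), which encodes a related inhibitor, had a smaller difference. It stood at 155, 140 and 163 RPKM in control, at 114, 73.0 and 37.3 RPKM in Fip200 KO, at 107, 100.0 and 90.2 RPKM in Atg5 KO and at 115, 100 and 137 RPKM in Atg7 KO. All 9 KO libraries were below all 3 control libraries, as for 7.28% of all tested genes, and Fip200 KO replicate 3 was the lowest for Id3 as for Id1. In Atg5 KO the log2 fold change was -0.62 (SE 0.11, adjusted p 0.0114 by limma), which passed the threshold on p but not the threshold on size. The values were -1.17 in Fip200 KO (SE 0.38, adjusted p 0.210 by limma) and -0.39 in Atg7 KO (SE 0.16, adjusted p 0.142 by limma). In 1 fit of all 12 libraries the Fip200 KO value was called (adjusted p 0.0617 by limma). The other tested alternatives did not call it, with adjusted p up to 0.671 by limma. Per 1000 RPKM of endothelial markers, 8 of the 9 KO libraries remained below the lowest control value of 49.6, and the highest KO value was 54.7.

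Id2 (15902), of the same family but not among the 10 genes, was measured from the list of other pathway genes. It was nearly constant in control, at 30.5, 30.2 and 31.2 RPKM, and stood at 2.14, 0.547 and 11.5 RPKM in Fip200 KO, at 7.04, 3.32 and 7.67 RPKM in Atg5 KO and at 6.10, 4.87 and 6.01 RPKM in Atg7 KO. All 9 KO libraries were below the control range, as for 7.28% of all tested genes. Id2 fell by 2.33 in Atg5 KO (SE 0.28, adjusted p 0.00478 by limma) and by 2.34 in Atg7 KO (SE 0.15, adjusted p 0.00226 by limma). In Fip200 KO its log2 fold change was -3.28 (SE 0.78, adjusted p 0.124 by limma). It was called there in 1 fit of all 12 libraries (adjusted p 0.0251 by limma) and without Fip200 KO replicate 3 (-4.23, adjusted p 0.00958 by limma), and without Fip200 KO replicate 2 it was -2.47. The other tested alternatives did not call it there, with adjusted p up to 0.501 by limma. With the library prefix as a term neither Id2 call held (-2.54 in Atg5 KO and -2.96 in Atg7 KO, adjusted p 0.154 and 0.520 by limma).

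**Figure D3:**
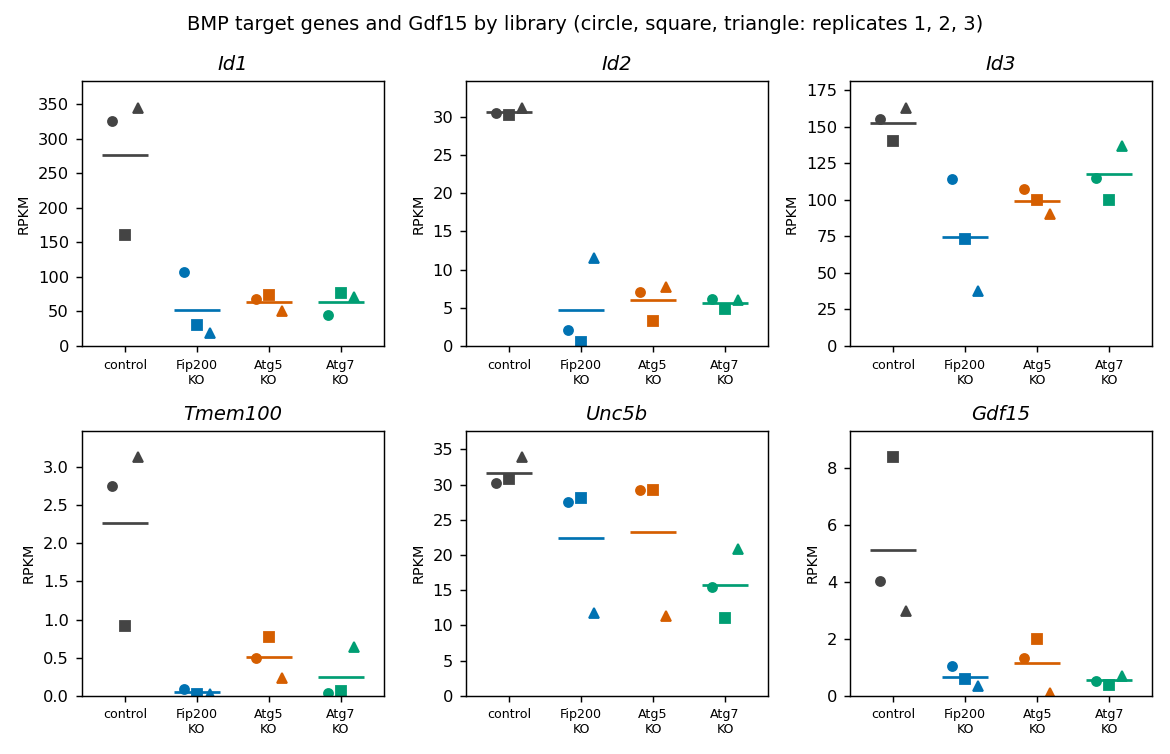
RPKM (vertical axes from 0) of the Id genes, of Tmem100 and Unc5b, listed as BMP targets, and of Gdf15, a ligand of the family, in the 4 groups. Circles, squares and triangles are replicates 1, 2 and 3 and lines are group means. The 6 genes were put together after their values were seen. In each, all 9 KO libraries lie below all 3 control libraries, as for 7.28% of all tested genes. Tgfb3 has the same order and is not shown, nor is Ctgf, a called target that rose in Atg7 KO. Tmem100 stood on at most 28 reads in a KO library, and Id2 at 30.2 to 31.2 in control and 0.547 to 11.5 in KO.

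Acvrl1 (11482) encodes ALK1, the endothelial type I receptor. It stood at 27.2, 13.8 and 18.3 RPKM in control, at 13.3, 44.0 and 34.5 RPKM in Fip200 KO, at 36.6, 41.2 and 45.5 RPKM in Atg5 KO and at 52.4, 28.1 and 50.7 RPKM in Atg7 KO. Every Atg5 KO and Atg7 KO library was above the highest control library, and 8 of the 9 KO libraries were, the exception being Fip200 KO replicate 1, the lowest of all 12 and the library with the highest Cd68. Acvrl1 rose by 1.09 on the log2 scale in Atg5 KO (SE 0.24, 41.1 ± 4.42 against 19.8 ± 6.81 RPKM, SD, n = 3 each, adjusted p 0.0186 by limma) and by 1.13 in Atg7 KO (SE 0.32, 43.7 ± 13.5 RPKM, adjusted p 0.0595 by limma). In Fip200 KO the value was 0.51 (SE 0.46, 95% interval -0.58 to 1.60, adjusted p 0.608 by limma).

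Both Acvrl1 calls rested on single libraries. Without control replicate 2, the library low in endothelial markers, the values were 0.86 in Atg5 KO (adjusted p 0.0326 by limma) and 0.90 in Atg7 KO (adjusted p 0.164 by limma), and neither was called. In 1 fit of all 12 libraries the Atg5 KO call was lost (adjusted p 0.107 by limma). The Atg7 KO call was also lost without control replicate 3 (1.10, adjusted p 0.171 by limma), without Atg7 KO replicate 1 (0.97, adjusted p 0.170 by limma) and without Atg7 KO replicate 3 (1.00, adjusted p 0.147 by limma). Within JG the 2 Atg5 KO libraries lay 1.26 above the 2 control libraries in mean log2, while within FY the Fip200 KO libraries and the control library differed by 0.00. With the prefix as a term in a fit of all 12 libraries, both calls were lost (1.26 in Atg5 KO and 1.16 in Atg7 KO, adjusted p 0.205 and 0.680 by limma). Per 1000 RPKM of endothelial markers Acvrl1 was at 8.67, 11.1 and 8.57 in control and overlapped the KO libraries, which ranged from 4.84 to 20.9. The part of the marker level in the Acvrl1 result was not tested further.

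Eng (13805), the co-receptor that presents ligand to ALK1, was not called in any KO. It stood at 260, 112 and 196 RPKM in control, at 295, 289 and 180 RPKM in Fip200 KO, at 253, 263 and 315 RPKM in Atg5 KO and at 262, 259 and 261 RPKM in Atg7 KO. Control replicate 2 was the lowest of the 12 libraries for Eng, and 6 of the 9 KO libraries were above all control libraries. The log2 fold changes were 0.47, 0.62 and 0.54 in Fip200, Atg5 and Atg7 KO, with 95% intervals of -0.37 to 1.31, -0.07 to 1.32 and -0.14 to 1.23. Per 1000 RPKM of endothelial markers Eng stayed within 72.1 to 108 in all 12 libraries, and control lay inside the KO range at 82.9, 90.2 and 91.8.

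**Figure D4:**
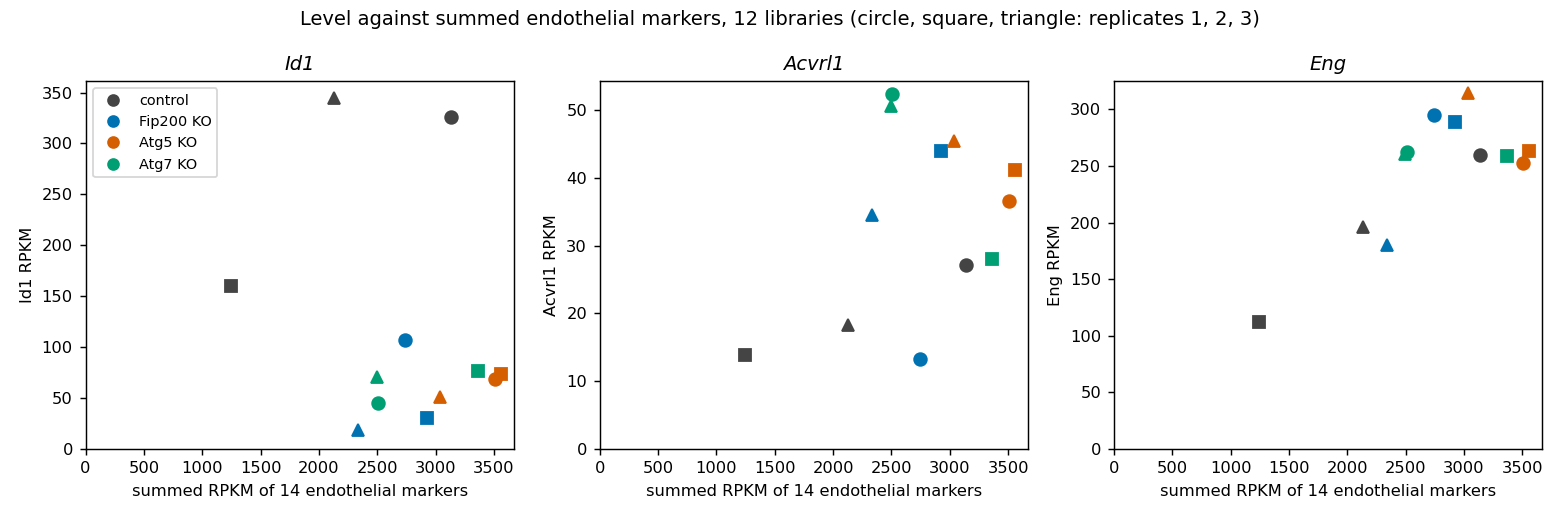
RPKM of Id1, Acvrl1 and Eng (vertical axes from 0) against the summed RPKM of 14 pan-endothelial markers (horizontal axis) in each of the 12 libraries, with colors for groups and circles, squares and triangles for replicates 1, 2 and 3. Control replicate 2, at a sum of 1245, has the lowest Eng (112) and the next to lowest Acvrl1 (13.8), and the control points of Id1 stand above all KO points across the range of sums.

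The other receptors gave no call. Bmpr2 (12168), the type II BMP receptor, was the steadiest of the 10 genes, from 9.18 to 13.4 RPKM over all 12 libraries, and its log2 fold changes were -0.03, -0.24 and -0.21 in Fip200, Atg5 and Atg7 KO, with 95% intervals of -0.46 to 0.40, -0.50 to 0.02 and -0.66 to 0.24. Those intervals leave out a change of 1 in size. Tgfbr1 (21812), the type I TGF-beta receptor, ranged from 2.49 to 7.37 RPKM, with both extremes in Atg7 KO, and its log2 fold changes were -0.36, -0.26 and -0.38. Tgfbr2 (21813), the type II TGF-beta receptor, stood at 116, 43.4 and 72.4 RPKM in control, at 74.5, 90.8 and 46.6 RPKM in Fip200 KO, at 132, 143 and 108 RPKM in Atg5 KO and at 82.1, 161 and 57.6 RPKM in Atg7 KO. Its groups overlapped in each comparison with control, and control replicate 2 was again the lowest library. The Tgfbr2 log2 fold change was 0.82 in Atg5 KO (SE 0.33, 95% interval 0.03 to 1.61, adjusted p 0.104 by limma), -0.07 in Fip200 KO and 0.35 in Atg7 KO. Without control replicate 1 the Atg5 KO value was called, at 1.17 (adjusted p 0.0210 by limma).

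The ligand Bmp4 (12159), a BMP made by many vascular and mesenchymal cells, stood at 111, 100 and 116 RPKM in control, at 198, 144 and 156 RPKM in Fip200 KO, at 90.2, 78.5 and 159 RPKM in Atg5 KO and at 170, 146 and 128 RPKM in Atg7 KO. All Fip200 KO and Atg7 KO libraries were above control, while Atg5 KO differed by library prefix, with JG replicates 1 and 2 below control and the Yang replicate 3 above it. The log2 fold changes were 0.59 in Fip200 KO (SE 0.20, 95% interval 0.13 to 1.05, adjusted p 0.217 by limma), -0.07 in Atg5 KO (SE 0.26, adjusted p 0.861 by limma) and 0.43 in Atg7 KO (SE 0.16, adjusted p 0.108 by limma). With the prefix as a term in a fit of all 12 libraries, the Atg7 KO value turned to -0.48 (SE 0.345, adjusted p 0.704 by limma), and Atg7 KO has no control library of its prefix.

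The inhibitory Smads were the least abundant of the 10 genes. Smad6 (17130), which mainly restrains BMP receptors, stood at 9.44, 2.95 and 2.59 RPKM in control and between 1.40 and 4.25 RPKM in the KO libraries, on 90 to 532 reads per library. Control replicate 1 alone was above every other library. The Smad6 log2 fold changes were -0.40, -0.88 and -0.53 in Fip200, Atg5 and Atg7 KO, each with an SE of 0.45 or more. Smad7 (17131), which restrains both arms, ranged from 2.13 to 4.86 RPKM on 195 to 465 reads. In Atg5 KO Smad7 stood at 2.53, 2.13 and 2.72 RPKM, below the 3.38, 4.43 and 3.11 RPKM of control, with a log2 fold change of -0.48 (SE 0.18, adjusted p 0.0840 by limma) that missed the threshold on size. The Smad7 values were -0.18 in Fip200 KO and 0.23 in Atg7 KO.

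Differences between the KO groups were tested directly in 1 fit of the 12 libraries, and 0 of the 10 genes were called by limma in each of the 3 comparisons, where 0% of 12233 genes were called. Limma-voom also called 0 in each. At an unadjusted p under 0.05 limma gave 1 of the 10 in each comparison, against 7.58%, 7.49% and 4.59% of all tested genes. Bmp4 was lower in Atg5 KO than in Fip200 KO (-0.66, SE 0.24, adjusted p 0.578 by limma), Id3 was higher in Atg7 KO than in Fip200 KO (0.78, SE 0.31, adjusted p 0.642 by limma), and Smad7 was higher in Atg7 KO than in Atg5 KO (0.70, SE 0.22, adjusted p 0.935 by limma). For Id1 the differences were 0.67 for Atg5 KO minus Fip200 KO (95% interval -0.49 to 1.84), 0.65 for Atg7 KO minus Fip200 KO (-0.52 to 1.81) and -0.03 for Atg7 KO minus Atg5 KO (-1.19 to 1.14). For Acvrl1 they were 0.58 (-0.32 to 1.47), 0.62 (-0.28 to 1.51) and 0.04 (-0.85 to 0.94). These intervals reach a log2 fold change near or beyond 1 in size, so differences between KO groups of that size are not excluded. The count over all genes rested on Fip200 KO replicate 3, since without it limma called 300 genes for Atg5 KO and 402 for Atg7 KO against Fip200 KO.

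The wider pathway was read from a list of 61 other symbols, of which 56 were in the tables. In Fip200 KO 2 of 42 tested genes were called, both lower. Atg5 KO gave 6 of 42 lower and 2 higher, and Atg7 KO gave 8 of 43 lower and 5 higher. Of these, Tmem100 in Fip200 KO and Tgfb3 in Atg7 KO passed the filter on low values through the control libraries alone. Passing through 1 group alone, either KO or control, held for 54 of the 234 genes called in Fip200 KO and 156 of the 1191 called in Atg7 KO. Of all genes tested, 1.64%, 6.94% and 6.81% were called lower in Fip200, Atg5 and Atg7 KO, and 0.347%, 4.31% and 3.29% were called higher. The median log2 fold change of the list was -0.23, 0.08 and 0.06, beside 0.02, 0.06 and -0.01 over all tested genes. Some of these genes had been described from these data before the list was made, so the list is no independent evidence. Between KO groups 0 of 45 tested list genes were called by limma in each comparison, limma-voom called 0 genes of the whole table, and limma gave 2, 4 and 4 list genes at an unadjusted p under 0.05 for Atg5 KO against Fip200 KO, Atg7 KO against Fip200 KO and Atg7 KO against Atg5 KO. The genes named next as called in some KO groups are therefore not shown to differ between them. With the library prefix as a term in a fit of all 12 libraries, Tgfb3 and Grem1 in Atg5 KO kept their calls (-1.73 and -5.81, adjusted p 0.0703 and 0.0754 by limma), and every other call described for the list against control was lost.

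Among the ligands, Gdf15, a stress-induced member of the family, fell in each KO, from 4.03, 8.37 and 2.97 RPKM in control to between 0.108 and 1.99 RPKM over the 9 KO libraries. Its log2 fold changes were -2.22, -1.89 and -2.34 (adjusted p 0.0800, 0.0490 and 0.0144 by limma). Tgfb3 fell by 1.64 in Atg5 KO (adjusted p 0.0205 by limma), and its 9 KO libraries, at 0.0513 to 1.35 RPKM, were below the control libraries at 1.37 to 3.90 RPKM, as for 7.28% of all tested genes. Tgfb2 moved the other way, rising by 1.08 in Atg5 KO and by 2.03 in Atg7 KO (adjusted p 0.0935 and 0.0510 by limma), from 0.428 to 2.37 RPKM in control to 2.16 to 14.4 RPKM over the KO libraries. In Atg7 KO, the call rule also held for Tgfb1, the most abundant TGF-beta ligand here, which fell from a mean of 157 to 73.0 RPKM (log2 fold change -1.09, adjusted p 0.0307 by limma), and for Bmp6, which rose from 3.84 to 12.1 RPKM (1.58, adjusted p 0.0986 by limma). In Atg5 KO it held for Inhba, the activin A subunit, which fell from 14.8 to 5.96 RPKM (-1.16, adjusted p 0.0545 by limma). The Fip200 KO libraries were also outside the control range, with no call, for Bmp6 (8.91 to 17.0 RPKM), Tgfb2 (3.19 to 14.4 RPKM) and Tgfb3 (0.313 to 1.35 RPKM). Fip200 KO and control did not overlap for 24.1% of all tested genes. Leaving out 1 library ended the Gdf15 call in Fip200 KO for each library but Fip200 KO replicate 3 (adjusted p 0.104 to 0.308 by limma) and in Atg5 KO for control replicate 2 (adjusted p 0.124 by limma), where the value without Atg5 KO replicate 3 was -1.28 and still called. Voom, no filter and the replicate block also ended the Gdf15 call in Fip200 KO. Leaving out 1 library ended the Tgfb2 call in Atg5 KO for each library but control replicate 1 (adjusted p 0.114 to 0.216 by limma) and in Atg7 KO for control replicates 2 and 3 and Atg7 KO replicate 1 (adjusted p 0.128 to 0.154 by limma). The Tgfb2 call in Atg5 KO was also lost with pseudocounts of 0.1 and 1, no filter, median of ratios scaling, the replicate block and the fit of all 12 libraries (0.87 to 1.37, adjusted p 0.0875 to 0.247 by limma). With the prefix term the Gdf15 values were -2.02, -1.38 and -0.62 (adjusted p 0.333, 0.141 and 0.819 by limma), and in Atg7 KO those of Tgfb1 and Bmp6 were -0.24 and 0.86 (adjusted p 0.941 and 0.809 by limma). The Tgfb1 call was lost without control replicate 3 or Atg7 KO replicate 1 (adjusted p 0.122 and 0.102 by limma) and, on size, without Atg7 KO replicate 2 (-0.96). The Bmp6 call was lost without control replicate 2 or 3 or Atg7 KO replicate 1 or 3 (adjusted p 0.136 to 0.249 by limma), and with a pseudocount of 0.1, no filter or voom (adjusted p 0.104 to 0.136 by limma). The Inhba call was lost without Atg5 KO replicate 1 or 2 (adjusted p 0.103 and 0.150 by limma) and, on size, without control replicate 2 (-0.75), and also under the replicate block and in the fit of all 12 libraries (adjusted p 0.103 and 0.263 by limma). The Tgfb3 call in Atg5 KO held without each library in turn. In Atg7 KO, Tgfb3 was under 0.5 RPKM in each library and entered the test through control alone, so its call there is not read as a result.

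No receptor and no receptor-regulated or common Smad of the list was called. The most abundant receptors, Cd109, a TGF-beta co-receptor, and Acvr1, a type I BMP receptor, ranged from 5.94 to 41.9 and from 7.07 to 17.2 RPKM. The most abundant Smads, Smad1 and Smad4, ranged from 51.2 to 137 and from 22.8 to 36.1 RPKM.

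Among the targets, Tmem100, an endothelial membrane protein induced through ALK1, stood at 2.75, 0.911 and 3.13 RPKM in control, at 0.499, 0.771 and 0.236 RPKM in Atg5 KO and at 0.0328, 0.0622 and 0.639 RPKM in Atg7 KO, on at most 28 reads in any KO library. Its log2 fold changes were -1.38 and -1.87 (adjusted p 0.0415 and 0.0391 by limma). Only 1 library of each of these KO groups reached the 0.5 RPKM of the filter, so the gene was tested largely through its control libraries and these calls carry little weight. Unc5b, an endothelial netrin receptor, fell by 1.02 in Atg7 KO (adjusted p 0.0328 by limma), and its 9 KO libraries at 11.1 to 29.3 RPKM were below control at 30.2 to 33.9 RPKM, as for 7.28% of all tested genes. Ctgf, a matricellular TGF-beta target, rose by 2.24 in Atg7 KO (adjusted p 0.0229 by limma), to 295, 365 and 113 RPKM from 39.2 to 62.8 RPKM in control. The Tmem100 call was lost in Atg5 KO without control replicate 3 or Atg5 KO replicate 1 or 3 (adjusted p 0.106 to 0.123 by limma) and in Atg7 KO without control replicate 3 or Atg7 KO replicate 1 (adjusted p 0.142 and 0.127 by limma). In Fip200 KO, Tmem100 stood on 1 to 3 reads per library and entered the test through control alone, so its call there is not read as a result. The Unc5b call was lost without control replicate 3 (-0.97), Atg7 KO replicate 1 (-1.03) or Atg7 KO replicate 2 (-0.80), with a pseudocount of 1 (-0.999) and in the fit of all 12 libraries (adjusted p 0.119 by limma). The Ctgf call held without each library in turn but not with the prefix term (1.43, adjusted p 0.809 by limma), with which the Unc5b value turned to 0.27.

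Among the inhibitors, Smurf2, a ubiquitin ligase for the receptors and Smads, was above all control libraries (9.76 to 19.0 RPKM) in all 9 KO libraries (21.8 to 48.5 RPKM), as for 6.02% of all tested genes, and it rose by 1.43 in Atg7 KO (adjusted p 0.0216 by limma). Grem1, a secreted BMP antagonist, fell in Atg5 KO and Atg7 KO (log2 fold changes -5.33 and -5.74, adjusted p 0.0103 and 0.0239 by limma), but its control libraries were themselves far apart at 28.6, 411 and 143 RPKM, in the order of their fibroblast marker sums, 6.20, 214 and 45.5 RPKM. Without control replicate 2 the Grem1 values were -4.44 and -4.84, without control replicate 1 they were -6.35 and -6.76, and without Atg7 KO replicates 2 and 3 the Atg7 KO value was -5.10 and -6.74, all still called. The part of those markers in the Grem1 result was not tested. Chrdl1, another BMP antagonist, was under 0.7 RPKM in control and rose by 4.63 in Atg5 KO (adjusted p 0.00305 by limma), where it stood between 12.4 and 24.9 RPKM. Control replicates 1 to 3 held 0.621, 0.0486 and 0.00726 RPKM, on 82, 8 and 1 reads. The gene was therefore tested largely through its KO libraries, and this call carries little weight. Fip200 KO and Atg7 KO each held 2 libraries with Chrdl1 at 13.1 RPKM or more and 1 library at 0.0131 or 0.0157 RPKM. Mgp, a matrix protein that binds BMPs, stood at 69.7, 73.4 and 73.1 RPKM in Atg7 KO and at 82.7 RPKM in Atg5 KO replicate 3, all of the Yang prefix, and at 4.59 RPKM or less in every other library. Its rise of 5.85 in Atg7 KO (adjusted p 0.01 by limma, and 6.86 without control replicate 2) therefore cannot be told apart from the prefix. Within Yang, Atg7 KO minus Atg5 KO replicate 3 was -0.20 in mean log2. With the prefix as a term the Atg7 KO value turned to -1.97 (adjusted p 0.608 by limma). Ltbp3, which anchors latent TGF-beta, fell by 1.04 in Atg7 KO (adjusted p 0.0557 by limma), a call that was lost without control replicate 3 or Atg7 KO replicate 1 or 3 (adjusted p 0.114 to 0.157 by limma) and, on size, without control replicate 2 (-0.71).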

How the data were processed

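RNA of 12 libraries of 562 cells was made by the authors into directional libraries. The paper and the submitters' processing notes name TopHat2 for alignment and edgeR for testing, and the genome build, annotation and versions are not given in the sources used here. Each KO has a table of its own, deposited with the same 3 control libraries, which were equal in 6 of 6 comparisons of columns. The values per library that the authors deposited were read as RPKM from their ratios, since no unit is named. The tables also hold the authors' group means, fold changes, log2 fold changes, p-values and adjusted p-values, which were not used. Dividing out length and depth gave whole reads, within 0.001 of a read, for 14851 of 14851 genes, as the smallest that fit, and 20 genes had none.

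Genes with RPKM of at least 0.5 in 3 or more compared libraries were tested by limma with a trend on log2(RPKM + 0.5), against control in fits of 6 libraries and between KO groups in 1 fit of 12. Adjusted p-values cover all tested genes. The script was tested on simulated data. The members and lists were chosen with earlier results of these data known. The text names all members, each pathway gene called against control, or else the 2 most abundant of its part of the list, and the 3 genes nearest in profile to each called member. Id2 in Fip200 KO and the scale per endothelial marker were added after the data were seen. Same-numbered libraries deviated together in 2 of 18 pairs only (correlations over 0.1, range -0.5 to 0.26), so the numbers were not taken to pair the samples. Alternatives were other pseudocounts (0.1 and 1), filters, scaling, limma-voom, the replicate block, left-out libraries, all 12 libraries and the library prefix. The tools were R 4.3.3 with limma 3.58.1, and scipy 1.17.1, pandas 2.3.3, matplotlib 3.10.9 and numpy 2.4.6 under Python 3.11.15. Promoters came from RefSeq (GRCm38.p6).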

Additional observations from a re-analysis of the deposited data

How the results depend on the processing

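Id1 was called in Atg5 KO and Atg7 KO under every tested alternative but the library-prefix term, and the Acvrl1 calls were lost as the text gives. With the prefix as a term, 0 members were called in each KO against control and 0, 4 and 0 genes of the pathway list in Fip200, Atg5 and Atg7 KO. With all 12 libraries in 1 fit, the members called were 2, 1 and 2, and the list gave 5 in Fip200 KO. In Fip200 KO the list also gave 1 with no filter, 1 with the filter at RPKM 1 and 1 by limma-voom. Leaving out 1 library gave 0 to 1, 1 to 3 and 1 to 2 members and 0 to 5, 5 to 14 and 6 to 13 list genes. All genes called in Fip200 KO then ranged from 0, without control replicate 2 or 3, to 598, without Fip200 KO replicate 3.

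Under the replicate block, members called stayed at 0, 2 and 2, the list gave 0, 6 and 14, and all genes gave 93, 1322 and 1071. Of the 18 same-number pairs over 6 comparisons, 3 correlated best with their own number, so not every library did.

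Directions turned over left-out libraries in Fip200 KO for Tgfbr2 (-0.43 to 0.28), Smad6 (-0.71 to 0.14), Bmpr2 (-0.074 to 0.006) and Smad7 (-0.28 to 0.019), in Atg5 KO for Bmp4 (-0.37 to 0.14), in Atg7 KO for Smad6 (-0.84 to 0.001) and Tgfbr2 (-0.056 to 0.70), and between Atg7 KO and Atg5 KO for Acvrl1 (-0.12 to 0.33) and Id1 (-0.19 to 0.21). With the prefix term they turned for Eng in Fip200 KO (-0.066), for Smad6 (0.65), Smad7 (-0.002), Bmp4 (-0.48), Mgp (-1.97) and Unc5b (0.27) in Atg7 KO, and between Atg7 KO and Atg5 KO for Acvrl1 (-0.11) and Id1 (0.30), with none called there. Median of ratios scaling gave 0.043 for Id1 in that last comparison. The causes were not tested. The scale per endothelial marker shares its factor over all genes, so it gives values with no test. Smad6, Smad7 and Tmem100 rested on as few as 90, 195 and 1 reads in a library. For other called list genes the fewest reads in a library were 0 for Mgp, 1 for Chrdl1, 3 for Tgfb3 and 5 for Gdf15. They were 13 for Grem1, 14 for Id2, 44 for Tgfb2 and 75 for Bmp6.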

Other observations

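Over the 12 libraries, the genes whose centred log2 profile lay closest to that of Acvrl1 among 12233 genes were 9330020H09Rik, Brpf3 and Snord12, with root mean square differences of 0.20, 0.21 and 0.23 beside 0.66 for the Acvrl1 profile itself. For Id1 they were Fah, Pcdhb15 and Tmem100, at 0.53, 0.59 and 0.60 beside 1.19. Tmem100 stood on 1 to 28 reads in the KO libraries. Fah, the last enzyme of tyrosine breakdown, ranged from 3.48 to 23.6 RPKM. These are descriptions over libraries that share their controls and prefixes.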
